A study of Mus musculus with 4 samples.

Results

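Serpinb9, Serpinb6a, Serpinb6b, Serpina3g and Serpine2 are 5 of the 62 genes with a symbol that starts with Serpin among the 27998 genes of 4 mouse single-cell libraries. They were taken by symbol, without Serpinb9b, and Serpine2 was selected on a measured value, its higher level in CD8 T cells of the aC+C library. All values of Serpine2 in CD8 T cells of that library are therefore a description. The libraries were made from mice with 10x Genomics 3' reagents and carry the labels Ac, C, aC+C and IgG, which the labels do not spell out; each group is 1 library, and no number of mice is given. The age given for all groups is 6 to 8 weeks, in a field named genotype, and the protocol names mice of the line RedMUC298trTg. The titles describe immune cells that infiltrated a tumor, whereas goblet cells are named under cell type and in the protocol. Ptprc, the pan-leukocyte marker CD45, had a UMI in 90.8% of the barcodes of Ac, 89.1% of C, 87.0% of aC+C and 91.3% of IgG, and Muc2, the mucin of goblet cells, had 2 to 4 UMIs in a whole library, so the values go with the titles.

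Serpins trap proteases: the enzyme cleaves a loop of the inhibitor and stays bound to it in a dead complex. Those of clade B lack a classical secretion signal and act inside cells, where in lymphocytes they are known for guarding the cell against its own granule enzymes. In mice Serpinb9 (SPI-6) inhibits granzyme B, Serpinb6b inhibits granzyme A, and Serpinb6a (SPI3) inhibits cathepsin G. Serpina3g (Spi2A) lacks the secretion signal of its clade and inhibits lysosomal cathepsins in the cytosol. Serpine2 (protease nexin-1) is secreted and inhibits thrombin and the plasminogen activators.

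In GRCm38 (GENCODE vM21) 3 members lie on chromosome 13: Serpinb6b at chr13:32965209-32979067 and Serpinb9 at chr13:33003250-33017957, neighbours on the plus strand, and Serpinb6a at chr13:33917918-34002794 on the minus strand. Serpina3g lies at chr12:104236245-104241939 (plus strand) and Serpine2 at chr1:79794197-79861180 (minus strand). The promoters of 4 members are shown, from 250 bases before to 50 bases after the start annotated by RefSeq (GRCm38.p6): those of Serpinb9 and Serpinb6b because their levels went together over cell types, that of Serpina3g because its level went with interferon genes in myeloid cells, and that of Serpine2 because it is the member with the largest ratios in CD8 T cells. Capitals mark matches, on either strand, to TTCNNNGAA (gamma-activated site), the core of the interferon-stimulated response element (a GAAA repeated after 2 bases), GGGCGG (GC box), TATAAA, the TATA box, and TGTGGT, the core bound by RUNX factors.
Serpinb9, chr13:33004291-33004590, plus strand: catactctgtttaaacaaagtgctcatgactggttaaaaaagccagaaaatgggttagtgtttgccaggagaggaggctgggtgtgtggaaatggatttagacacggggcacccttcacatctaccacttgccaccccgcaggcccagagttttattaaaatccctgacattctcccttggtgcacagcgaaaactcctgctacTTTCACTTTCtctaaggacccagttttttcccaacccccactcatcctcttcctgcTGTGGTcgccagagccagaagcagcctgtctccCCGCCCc
Serpinb6b, chr13:32965011-32965310, plus strand: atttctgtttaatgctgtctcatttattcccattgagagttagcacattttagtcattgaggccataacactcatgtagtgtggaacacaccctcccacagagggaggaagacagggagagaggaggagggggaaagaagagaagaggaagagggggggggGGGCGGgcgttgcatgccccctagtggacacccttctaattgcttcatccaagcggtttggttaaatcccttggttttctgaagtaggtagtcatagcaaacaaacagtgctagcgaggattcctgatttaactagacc
Serpina3g, chr12:104235897-104236196, plus strand: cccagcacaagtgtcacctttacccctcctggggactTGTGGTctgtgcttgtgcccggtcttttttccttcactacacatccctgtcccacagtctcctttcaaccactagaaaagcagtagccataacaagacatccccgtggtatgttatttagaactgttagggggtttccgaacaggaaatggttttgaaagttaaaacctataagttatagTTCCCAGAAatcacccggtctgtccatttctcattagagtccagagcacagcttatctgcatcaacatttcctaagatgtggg
Serpine2, chr1:79858616-79858915, minus strand: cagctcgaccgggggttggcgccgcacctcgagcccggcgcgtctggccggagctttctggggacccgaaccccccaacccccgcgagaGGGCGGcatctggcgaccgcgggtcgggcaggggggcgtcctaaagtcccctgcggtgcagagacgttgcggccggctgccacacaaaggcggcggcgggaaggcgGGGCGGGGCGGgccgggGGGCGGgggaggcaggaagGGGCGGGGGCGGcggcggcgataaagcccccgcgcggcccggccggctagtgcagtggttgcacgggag

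Serpinb9 held a match to the interferon-stimulated core at position -46 from the start, a RUNX core and a GC box after the start. Serpinb6b held a GC box only, at -89. Serpina3g held a gamma-activated site at -33 and a RUNX core at -213. Serpine2 held 6 GC boxes, 41 CpG and 77.7% G and C, a content above that of 97.9% of the 32851 promoters of the table, whose median was 52.7%. Over all those promoters the gamma-activated site was found in 8.30%, the interferon-stimulated core in 3.44%, the GC box in 35.7%, the RUNX core in 16.8% and the TATA box, absent from these 4 windows, in 13.6%. Serpinb6a has 2 annotated starts; the window of the distal start (chr13:34002745-34003044) held 2 gamma-activated sites, an interferon-stimulated core, which overlaps the upstream gamma-activated site, and 3 GC boxes, and that of the other (chr13:33936034-33936333) held none of these motifs. A match is a string of letters and was not tested as a site.

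Barcodes with at least 1000 UMIs, of which at most 10% came from mitochondrial genes, were kept: 4028 in Ac, 4210 in C, 4081 in aC+C and 3436 in IgG, with a median of 10492, 10762, 10671 and 11594.5 UMIs per barcode. Total UMIs per library were between 61519049 and 75665201, and 2 to 8 barcodes were shared between any 2 libraries. Barcodes were put in gates by marker transcripts, none of them a serpin; the CD8 T gate held 1177 barcodes in Ac, 648 in C, 1009 in aC+C and 1058 in IgG, the NK gate 448, 530, 225 and 463, and the myeloid gate 1037, 1171, 1347 and 529, in the same order of libraries. The stromal gate (87 to 171 barcodes) and the tumor-like gate (47 to 213) were small, as were the dendritic (71 to 110), regulatory T (148 to 279) and conventional CD4 T (170 to 210) gates; the tumor-like gate of IgG, with 47 barcodes, was under the minimum of 50 set for comparisons. All markers of each of these gates were detected in every library except Epcam, at 0 in the tumor-like gate of C and of aC+C. A further 121, 432, 193 and 214 barcodes of Ac, C, aC+C and IgG carried markers of 2 lineages and were left out as mixed.

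A level is a gene's UMIs divided by those of all barcodes of the gate and given per 1000000 (CPM), with an exact 95% Poisson interval, and a ratio is the level in the first of 2 libraries over that in the second, with an exact 95% binomial interval. With 1 library per group there is no test of any difference: the intervals cover counting error only, not the spread between animals, and UMIs of the same barcode are not independent. A ratio is spoken of as past the fold where it was at least 1.5 in either direction and the gene had at least 100 UMIs over both libraries.

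**Figure D1:**
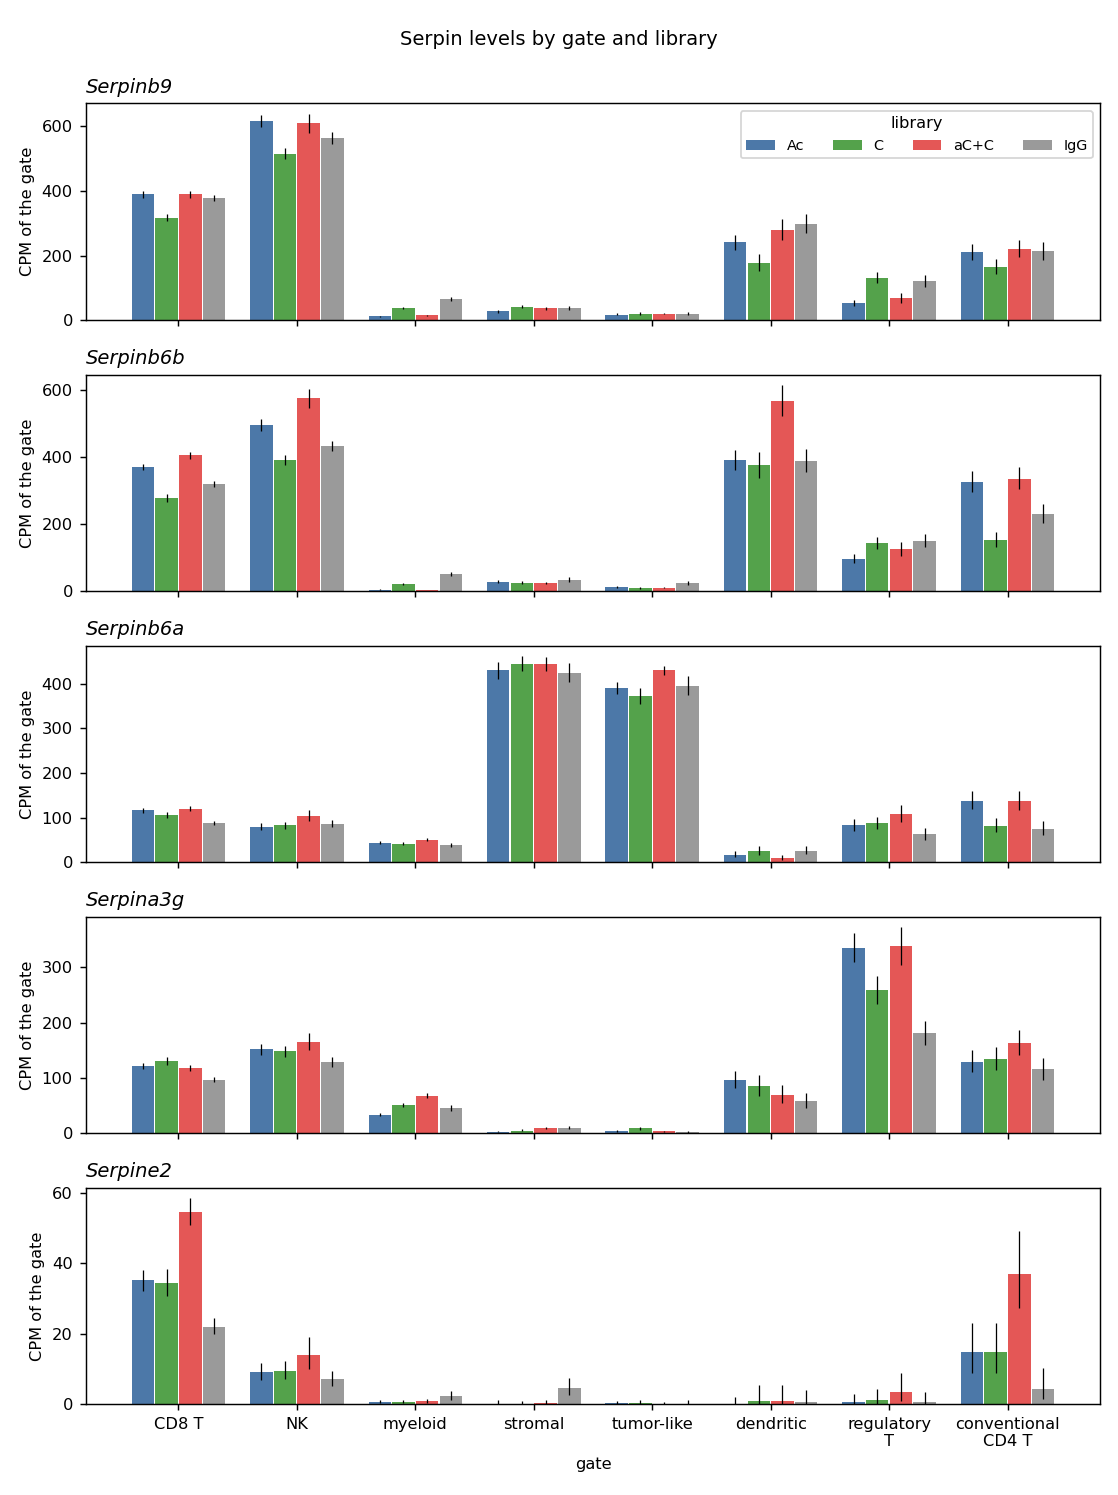
Levels of the 5 members (CPM of the gate, linear axis from 0; bars, 1 library each; lines, 95% Poisson intervals) in 8 gates. Serpinb9 and Serpinb6b stand highest in the NK gate in all 4 libraries, Serpinb6a in the stromal and tumor-like gates, Serpina3g in the regulatory T gate, and Serpine2 in the CD8 T gate.

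Each member had its own place among the cell types. Serpinb9, the granzyme B inhibitor, was highest in NK cells, at 617 (597 to 637) CPM in Ac, 516 (499 to 534) in C, 610 (581 to 639) in aC+C and 563 (545 to 581) in IgG. The CD8 T gate came next, with 389, 317, 389 and 379 CPM in Ac, C, aC+C and IgG, a range that did not overlap that of NK cells. Dendritic cells (177 to 298 CPM over the 4 libraries) and conventional CD4 T cells (165 to 220) overlapped, regulatory T cells followed at 51.9 to 131, and the stromal (27.6 to 41.9), myeloid (12.0 to 66.3) and tumor-like (17.3 to 20.1) gates overlapped at the bottom. The low gates lay far under the free RNA, the pool of barcodes with 1 to 50 UMIs, in which Serpinb9 had 188 to 317 CPM; the stromal level was 11.4% to 20.5% and the tumor-like level 5.89% to 10.6% of it.

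Serpinb6b, the granzyme A inhibitor, followed the same order apart from dendritic cells. Its level in NK cells was 495 CPM in Ac, 392 in C, 576 in aC+C and 433 in IgG, and in CD8 T cells it was 371, 278, 405 and 320. Dendritic cells, which had 391, 375, 568 and 389 CPM in Ac, C, aC+C and IgG, overlapped with both. Regulatory T cells lay at 96.7 to 151 CPM, and stromal cells at 23.6 to 34.3, with a 5.00-fold difference between the medians of these 2 gates. In the tumor-like gate of IgG, where the level was 24.5, a single barcode held 40.5% of the Serpinb6b UMIs; the other libraries had 12.6, 9.95 and 10.8 in Ac, C and aC+C.

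Serpinb6a, the cathepsin G inhibitor, was the member of the cells without CD45. Stromal cells had 430 CPM in Ac, 444 in C, 444 in aC+C and 424 in IgG, and tumor-like cells 390, 373, 430 and 394. The immune gate with the highest median, CD8 T cells at 88.7 to 119 CPM, stood apart from them, with a median 3.54 times lower than that of tumor-like cells. CD8 T, conventional CD4 T, regulatory T and NK cells overlapped, myeloid cells lay at 38.6 to 50.2 CPM and dendritic cells, the lowest, at 8.72 to 26.2. Serpinb6a had a UMI in 97.4% to 100% of stromal barcodes, which are deeper than immune ones.

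Serpina3g, the cytosolic cathepsin inhibitor, was highest in regulatory T cells at 180 to 337 CPM. NK cells (128 to 165), conventional CD4 T cells (115 to 163), CD8 T cells (96.4 to 130), dendritic cells (58.2 to 96.8) and myeloid cells (33.8 to 67.7) formed a chain in which each gate overlapped the next. Stromal cells (2.84 to 9.87) and tumor-like cells (1.75 to 8.59) had almost none, a step of 6.59-fold between the medians of myeloid and stromal cells. Of windows of 50 bases over the last 500 bases of Serpina3g transcripts, where 3' reads fall, 19.5% were identical in other genes of its cluster (Serpina3f, Serpina3h, Serpina3i and 2 pseudogenes), so that its counts may be incomplete or shared; the share was 5.47% for Serpinb6b, 1.22% for Serpinb6a and 0% for Serpinb9 and Serpine2.

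Serpine2, the secreted thrombin inhibitor, had its highest median in CD8 T cells. Its 541, 318, 789 and 378 UMIs in the CD8 T gate of Ac, C, aC+C and IgG gave levels of 35.2 (32.3 to 38.3), 34.4 (30.7 to 38.4), 54.7 (50.9 to 58.6) and 22.0 (19.9 to 24.4) CPM. NK cells had 9.11, 9.49, 14.0 and 7.11 CPM. Conventional CD4 T cells had 14.8, 14.8, 37.1 and 4.37, from 19, 19, 47 and 5 UMIs, of which a single barcode held 42.1%, 94.7% and 38.3% in Ac, C and aC+C; these levels rest on a few barcodes. Stromal cells, in which Serpine2 is known from other settings, had 1 UMI in Ac, 1 in C, 3 in aC+C and 16 in IgG, and tumor-like cells 2, 1, 3 and 0. In the free RNA it was at 7.87, 8.22, 12.3 and 11.4 CPM, below the CD8 T gate of the same library.

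In CD8 T cells Serpine2 was the only member past the fold, in each of the 5 comparisons made. Serpinb6b lay near it in aC+C over C, at 1.46, and ran between 1.44 and 1.60 over the alternatives tried, so that it was past 1.5 in some. Of all genes tested in that gate, 5.57% were past the fold in Ac over IgG, 3.12% in C over IgG and 9.62% in aC+C over IgG, and 1.03%, 1.53% and 1.54% were past it upward; since Serpine2 was chosen for this contrast its place is not a finding. The level in Ac was 1.60 times (1.40 to 1.82) that of IgG, and the level in C 1.56 times (1.34 to 1.82); over the alternatives tried these ratios ran between 1.35 and 1.65 and between 1.41 and 1.61. That in aC+C was 2.48 times (2.19 to 2.81) that of IgG, a ratio reached by 13 of 9336 genes, Serpine2 included. It was also 1.55 times (1.39 to 1.74) the level of Ac and 1.59 times (1.39 to 1.82) that of C, or 1.49 with each barcode given equal weight, in comparisons where 5.13% and 7.08% of the genes were past the fold. With TMM scaling, which sets the median gene near no change, the ratio of aC+C to IgG was 2.68; by library totals 144 genes were past the fold upward and 754 downward, and with TMM 231 and 520, the median log2 ratio over all genes being -0.11 by library totals. The split also moved with TMM in aC+C over C (90 genes upward and 537 downward, with TMM 166 and 367) and in aC+C over Ac (125 and 343, with TMM 171 and 243).

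The other 4 members differed less. Serpinb6a in CD8 T cells had 116, 105 and 119 CPM in Ac, C and aC+C, against 88.7 in IgG, with ratios of 1.31 (1.22 to 1.40), 1.19 (1.10 to 1.29) and 1.35 (1.26 to 1.44). Serpina3g had 122, 130 and 117 CPM in Ac, C and aC+C, against 96.4 in IgG, with ratios of 1.26, 1.35 and 1.22. Both were lowest in IgG, with intervals that left out 1. Serpinb6a lay below the free RNA in every library, at 78.9%, 80.4%, 57.6% and 74.1% of it in Ac, C, aC+C and IgG. In the free RNA Serpinb6a was also lowest in IgG, with 147, 131 and 208 CPM in Ac, C and aC+C, against 120. The part of free RNA in the Serpinb6a ratios was not tested. Serpinb6b was 1.27 times (1.22 to 1.31) the IgG level in aC+C and 1.16 times in Ac, but 0.869 times (0.828 to 0.910) in C. Serpinb9 was at 1.03 times the IgG level in both aC+C and Ac, with intervals that held 1, and at 0.837 times (0.801 to 0.874) in C. C was thus the lowest library for both granule enzyme inhibitors, Serpinb9 and Serpinb6b, in CD8 T cells and in NK cells. Serpinb9b, the neighbour left out of the group, had 53.1, 58.6 and 123 CPM in CD8 T cells of Ac, C and aC+C, against 37.4 in IgG.

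**Figure D2:**
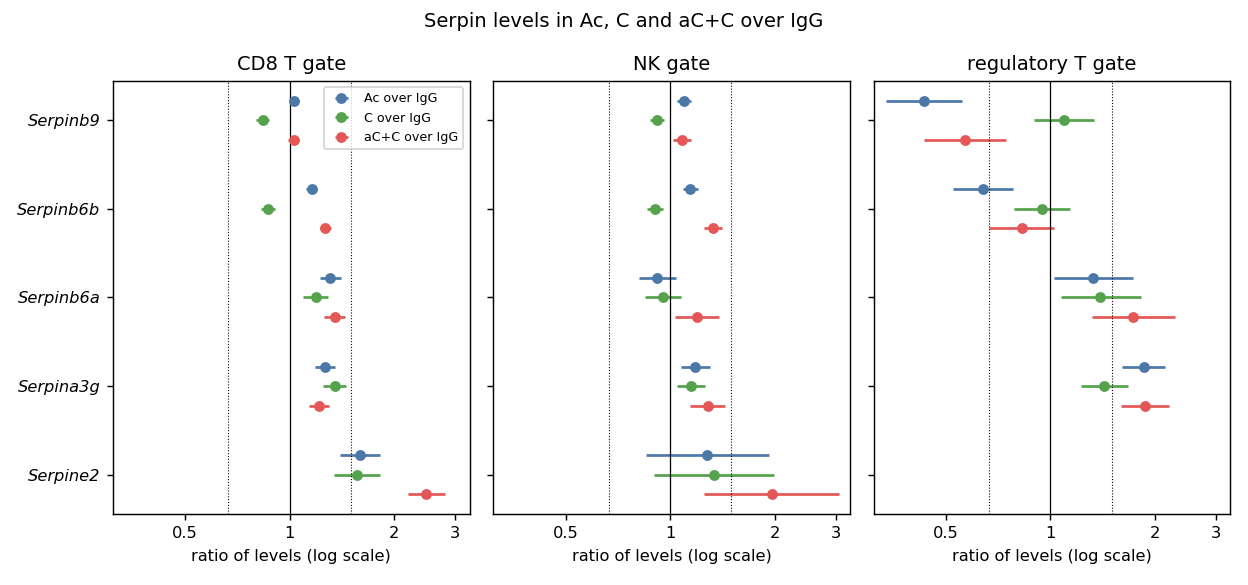
Ratios of member levels in Ac, C and aC+C over IgG (log scale; points, 1 pair of libraries; lines, 95% intervals for counting error; dotted lines, 1.5-fold either way; ratios with under 50 UMIs not drawn). In the CD8 T gate Serpine2 alone lies past 1.5, up to 2.48 in aC+C; in the regulatory T gate Serpina3g reaches 1.87 in aC+C and 1.86 in Ac.

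Serpine2 transcripts were spread unevenly over CD8 T barcodes. No UMI was found in 1006 of 1177 barcodes in Ac, 521 of 648 in C, 761 of 1009 in aC+C and 889 of 1058 in IgG; 35, 13, 40 and 18 barcodes had 5 or more. The 10 barcodes with the most held 24.8%, 35.8%, 26.6% and 27.5% of the UMIs, and the highest single barcodes 25, 22, 36 and 25. Without the barcode that held most UMIs of the gene in each library, the ratio of aC+C to IgG was 2.53. The share of CD8 T barcodes with a UMI was 14.5% in Ac, 19.6% in C, 24.6% in aC+C and 16.0% in IgG; after every barcode was thinned to 1000 UMIs it was 2.38%, 2.78%, 3.57% and 2.27%, and after thinning to 3000 UMIs, with 8, 18, 26 and 13 shallower barcodes left out, 5.39%, 7.94%, 7.93% and 4.02%. The exact Clopper-Pearson intervals of the last, for counting error over barcodes only, were 4.17% to 6.84% in Ac, 5.95% to 10.3% in C, 6.32% to 9.80% in aC+C and 2.91% to 5.39% in IgG. In the myeloid gate, which has hardly any, the share after thinning to 1000 UMIs was 0% to 0.0965%.

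Within the CD8 T gate Serpine2 was higher in barcodes with cycling genes, with both Pdcd1 and Havcr2, and with granzymes C to G. Barcodes with at least 10 UMIs of granzymes C to G had 74.9 CPM of Serpine2 in Ac, 58.4 in C, 92.6 in aC+C and 31.7 in IgG, and the other barcodes had 26.0, 21.2, 35.2 and 17.4; the ratios were 2.88, 2.76, 2.63 and 1.82. Barcodes with a UMI of both Pdcd1 (PD-1) and Havcr2 (TIM-3) had 45.0, 45.6, 67.9 and 26.2 CPM, and the others 21.1, 20.6, 27.0 and 14.8. Cycling barcodes, with at least 2 UMIs of Mki67, Top2a, Birc5 and Cdk1, had 48.4, 38.8, 68.9 and 26.8, and the others 21.5, 28.3, 31.7 and 14.5. These 3 splits put the higher level on the same side in all 4 libraries. Barcodes in these parts were deeper, for instance a median of 18502 UMIs with and 10572 without granzymes C to G in aC+C; a level per 1000000 UMIs takes depth into account, but the part of depth in the split was not tested.

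Interferon genes (Isg15, Ifit1, Ifit3, Rsad2) split Serpine2 the other way. Barcodes with at least 5 UMIs of these genes had 25.2, 27.9, 40.2 and 12.8 CPM of Serpine2 in Ac, C, aC+C and IgG, and the others 38.4, 36.1, 58.5 and 26.0. The interval of the ratio held 1 only in C (0.564 to 1.04). Ly6c2, a memory-associated surface antigen gene of CD8 T cells, split it in Ac, with 23.6 in barcodes with at least 5 UMIs and 48.2 in the others, whereas the ratios in C, aC+C and IgG were 0.975, 1.02 and 0.997. The level of Ly6c2 itself was nevertheless lower in barcodes with a Serpine2 UMI in all 4 libraries, at 0.342, 0.555, 0.673 and 0.692 times that of the other CD8 T barcodes in Ac, C, aC+C and IgG. In each of the 10 parts made by these 5 splits, the level in aC+C was 1.82 to 3.15 times that in IgG. The splits divide the same barcodes, and Serpine2 was selected for its level in aC+C, so these ratios are a description only.

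**Figure D3:**
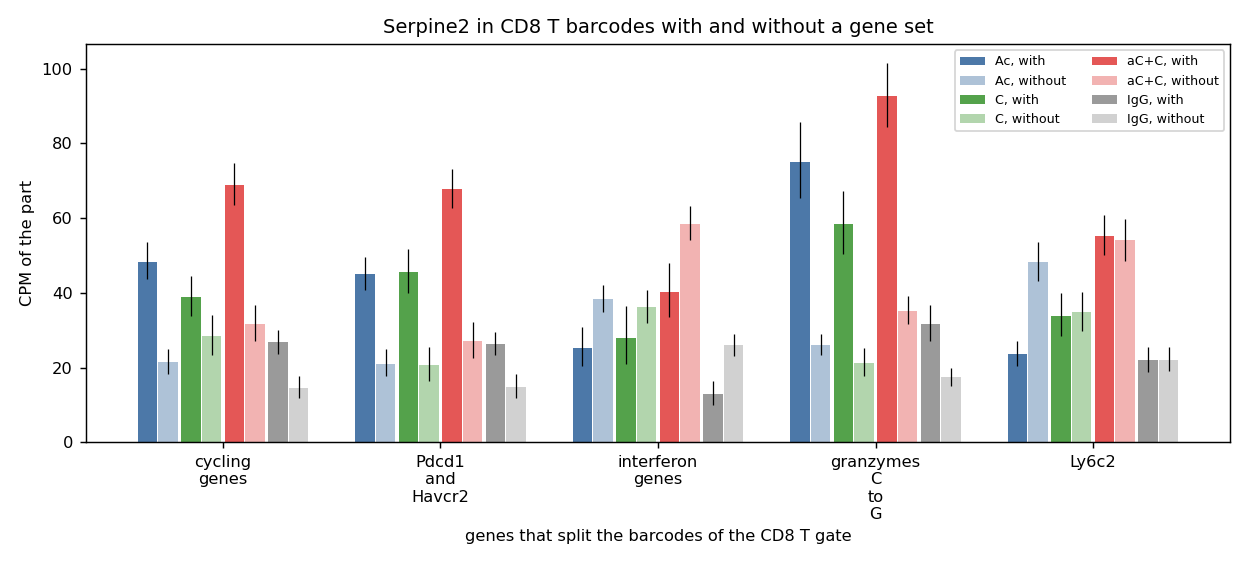
Serpine2 in the CD8 T gate (CPM of the part, linear axis from 0; lines, 95% Poisson intervals) in barcodes with (full colour) and without (pale) each gene set. The level with granzymes C to G reaches 92.6 in aC+C and is above the level without in every library, while the interferon genes run the other way.

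The genes that went with Serpine2 in single barcodes were set out by splitting CD8 T barcodes into those with and without a Serpine2 UMI, 171, 127, 248 and 169 with it in Ac, C, aC+C and IgG. Gzma, granzyme A, was at 0.185 times the level of the other barcodes in Ac, 0.436 in C, 0.269 in aC+C and 0.578 in IgG. Gzmk, granzyme K, was at 0.494, 0.468, 0.514 and 0.716 times, whereas Gzmb, granzyme B, was at 1.02 to 1.14 times. In IgG, 61.4% of the Gzma UMIs of the gate sat in the 81 barcodes with at least 2 UMIs of Ncr1, Klrb1c and Klra8. The gate without those 81 had 121 CPM of Gzma, against 175 in the Serpine2 barcodes, and their part in the Gzma ratios was not tested. By the ratios over the whole gate, Serpine2 barcodes were low in granzymes A and K and level in granzyme B. Gzmc was higher in them, at 1.68, 1.71, 2.82 and 1.22 times. The checkpoint receptors differed little and not in 1 direction: Pdcd1 was at 0.925, 1.18, 1.13 and 0.938 times and Havcr2 at 1.18, 1.33, 0.988 and 1.13 times in Ac, C, aC+C and IgG. Among the other serpins, Serpinb9b was at 4.20, 2.80, 2.36 and 1.59 times and Serpinb6a at 1.40, 1.23, 1.33 and 1.28 times. Barcodes with a Serpine2 UMI were deeper, with a median of 21106 against 11923 UMIs in IgG, and the part of depth was not tested.

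Serpina3g and Serpinb6a took other places among CD8 T barcodes. Serpina3g was lower in cycling barcodes, at 0.839, 0.773, 0.680 and 0.707 times the level of the others in Ac, C, aC+C and IgG, and lower with granzymes C to G, at 0.872, 0.806, 0.691 and 0.866 times. Serpinb6a was higher with granzymes C to G, at 156, 135, 146 and 102 CPM, against 107, 89.0, 106 and 82.4 in barcodes without. Serpinb9 with granzymes C to G was at 1.20, 1.44, 1.19 and 1.25 times the level of the other barcodes.

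In NK cells none of the members with at least 100 UMIs was past the fold, in any of the 5 comparisons. The share of all genes past it was 1.5% in Ac over IgG, 2.25% in C over IgG, 4.22% in aC+C over IgG, 3.78% in aC+C over Ac and 3.58% in aC+C over C. Serpinb6b in aC+C over C was at 1.47 (1.38 to 1.56), and at 1.42 to 1.53 over the alternatives tried; Serpine2 there was at 1.48 (0.962 to 2.24), from 39 and 62 UMIs. Serpine2 was at 1.97 times (1.25 to 3.08) in aC+C over IgG, from 39 and 47 UMIs, below the minimum for a comparison. The enzymes these serpins act on were abundant there: Gzmb had 2687, 2560, 2836 and 2406 CPM in Ac, C, aC+C and IgG, and Gzma 4205, 3975, 5441 and 2969. Gzma was the only one of 8 listed proteases and partners tested that was past the fold in aC+C over IgG, at 1.83.

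In CD8 T cells 11 of the 19 listed proteases and partners were tested in aC+C over IgG, with a median ratio of 0.948. Of all genes tested there, 9.62% were past the fold, 1.54% upward and 8.08% downward. Gzmb, at 1771, 1214 and 2279 CPM in Ac, C and aC+C, against 1489 in IgG, and Ctsl (cathepsin L) were past the fold upward in aC+C over IgG, the first at 1.53 times. Gzma, at 183, 230 and 138 in Ac, C and aC+C, against 272 in IgG, and Ctss (cathepsin S) were past it downward, at 0.507 and 0.536. Without the CD8 T barcodes that hold at least 2 UMIs of the NK genes Ncr1, Klrb1c and Klra8, 23 in aC+C and 81 in IgG, the ratio of Gzma was 1.06 (0.995 to 1.13) and that of Gzmb 1.54; this count was chosen after seeing the data. For the secreted Serpine2 the known partners Plat and Lrp1 were sparse in CD8 T cells, and F2r was not. F2r, the thrombin receptor, had 73.3, 50.3 and 51.0 CPM in Ac, C and aC+C, against 61.4 in IgG. The tissue plasminogen activator gene Plat was a stromal gene, at 161 to 202 CPM in that gate, and Lrp1, the receptor that clears serpin and protease complexes, was at 206 to 271 in myeloid cells.

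In myeloid cells Serpinb9 and Serpinb6b were lower in the other libraries than in IgG, and this went with NK transcripts in the gate. Serpinb9 had 12.0, 38.4 and 15.3 CPM in Ac, C and aC+C, against 66.3 in IgG, and Serpinb6b 4.24, 22.2 and 2.97, against 51.2. Both were past the fold in Ac, C and aC+C over IgG, where 5.24%, 4.4% and 7.63% of all genes were. The summed level of the 6 NK markers, none of them at 0, was 18.0, 119 and 7.11 in Ac, C and aC+C, against 169 in IgG, and that of Gzma 37.1, 205 and 25.0, against 438. The order of the libraries was the same for the NK markers and for Serpinb6b.

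In IgG most of those transcripts sat in few barcodes. Myeloid barcodes with at least 2 UMIs of Ncr1, Klrb1c and Klra8 numbered 8 in Ac, 55 in C, 4 in aC+C and 30 in IgG; in IgG they had a median of 25618.5 UMIs, against 9521 in the other myeloid barcodes, and held 79.8% of the Serpinb9 and 90.0% of the Serpinb6b UMIs of the gate. Without them, in a count chosen after seeing the data, Serpinb9 had 9.10, 12.0 and 14.2 CPM in Ac, C and aC+C, against 16.0 in IgG. The ratio of aC+C to IgG was then 0.891 (0.689 to 1.16), in place of 0.230. Serpinb6b had 1.41, 2.59 and 2.11 CPM, against 6.11 in IgG, from 19 to 34 UMIs and far under its 141 to 178 CPM in the free RNA. Its ratio of aC+C to IgG was then 0.346 (0.206 to 0.582), in place of 0.0579, from 34 and 31 UMIs, below the minimum for a comparison. Regulatory T cells held such barcodes as well, with NK markers summing to 39.6, 364 and 35.8 CPM in Ac, C and aC+C, against 339 in IgG. There Serpinb9 was at 51.9, 131 and 68.2 CPM in Ac, C and aC+C, against 120 in IgG, and without such barcodes at 47.1, 71.7 and 63.2, against 57.6.

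**Figure D4:**
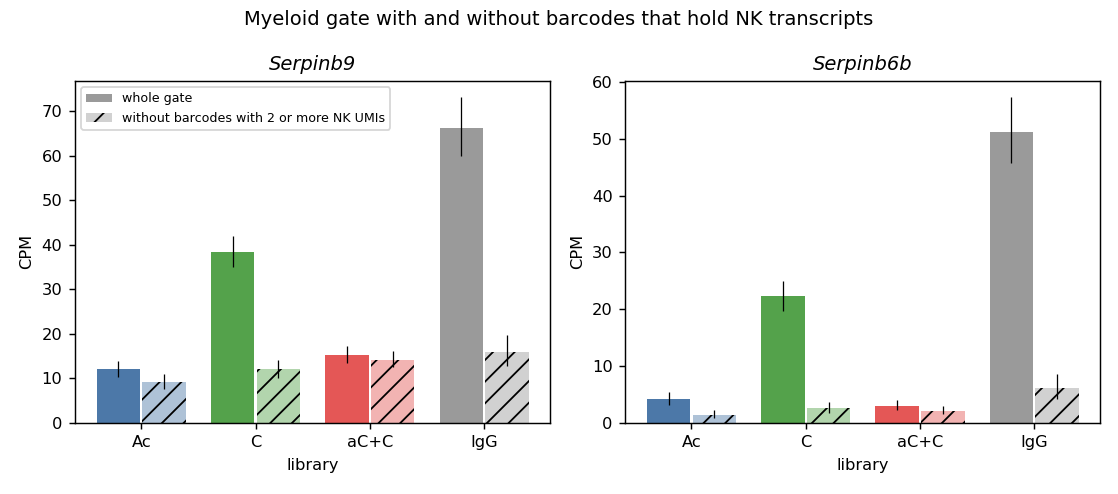
Serpinb9 and Serpinb6b in the myeloid gate (CPM, linear axis from 0; lines, 95% Poisson intervals), for the whole gate (solid) and without barcodes that hold at least 2 UMIs of Ncr1, Klrb1c and Klra8 (hatched). In IgG, Serpinb9 stands at 66.3 for the whole gate and 16.0 without those barcodes; the bars of the 4 libraries without them lie between 9.10 and 16.0.

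Serpina3g was the member past the fold upward in myeloid cells of aC+C over IgG. It had 33.8, 50.6 and 67.7 CPM in Ac, C and aC+C, against 44.8 in IgG. The ratio of aC+C to IgG was 1.51 (1.32 to 1.73), at the edge of the fold, and ran between 1.44 and 1.75 over the alternatives tried; 3.16% of all genes were past the fold upward. Relative to Ac it was 2.00 (1.80 to 2.24), where 3.88% of all genes were past the fold, and relative to C 1.34, where 5.54% were. Myeloid barcodes with at least 10 UMIs of the interferon genes had 45.3 in Ac, 84.5 in C, 100 in aC+C and 88.2 in IgG, and the others 29.8, 39.4, 54.5 and 27.6, so that the level was higher with interferon genes in all 4 libraries. The ratio of aC+C to IgG was 1.13 in the part with interferon genes and 1.98 in the part without.

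Serpinb6a in myeloid cells went with complement C1q, a mark of macrophages. Barcodes with at least 10 UMIs of C1qa, C1qb and C1qc per 10000 UMIs had 50.2 CPM in Ac, 54.4 in C, 69.4 in aC+C and 51.2 in IgG, and the others had 18.2, 13.0, 9.15 and 12.3. Barcodes rich in Chil3, Hp and Ly6c2, genes of monocytes, had the reverse, 9.18, 9.71, 9.27 and 12.5, against 52.0, 55.2, 71.4 and 49.4 in those without. In neither split did the ranges of the parts overlap. For the whole gate the level in aC+C was 1.30 times (1.12 to 1.51) that of IgG. These gate levels were 24.2% and 32.3% of those in the free RNA of aC+C and IgG, and the part of free RNA was not tested.

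**Figure D5:**
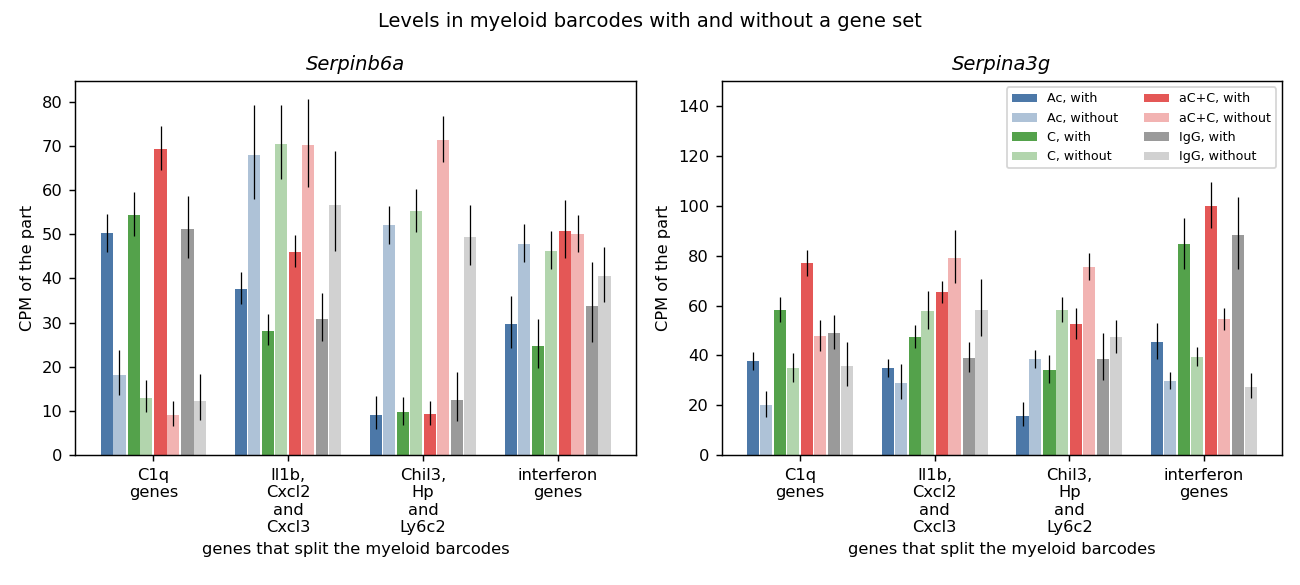
Serpinb6a and Serpina3g in the myeloid gate (CPM of the part, linear axis from 0; lines, 95% Poisson intervals) in barcodes with (full colour) and without (pale) each gene set. Serpinb6a is at 50.2 to 69.4 with C1q genes and at 9.15 to 18.2 without; Serpina3g is at 45.3 to 100 with interferon genes and at 27.6 to 54.5 without.

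In regulatory T cells Serpina3g had 335 CPM in Ac (310 to 361), 258 in C (234 to 283) and 337 in aC+C (304 to 373), against 180 in IgG (160 to 203). IgG was the lowest library and its interval did not meet those of the others. The ratios were 1.86 (1.61 to 2.14) in Ac, 1.43 (1.23 to 1.67) in C and 1.87 (1.60 to 2.19) in aC+C; 3.87% of genes were past the fold upward in Ac over IgG and 3.55% in aC+C over IgG, and 7.7%, 4.46% and 8.35% in either direction in Ac, C and aC+C over IgG. Serpina3g ranked among the first 32 of 4465 genes in Ac and 24 of 3723 in aC+C. With each barcode given equal weight the ratio of aC+C to IgG was 1.43, under the fold, and without the barcodes with NK transcripts it was 1.75. Serpinb6a was also past the fold in aC+C over IgG, at 1.73 (1.32 to 2.29), with 108 CPM in aC+C against 62.5 in IgG, and at 1.45 with a minimum of 5000 UMIs per barcode. Its level there was 52.2% of that in the free RNA in both libraries, where it had 208 CPM in aC+C and 120 in IgG. With free RNA subtracted at 5% of the gate total the ratio was 1.73. Because the percentage was equal in both libraries, this subtraction could not move the ratio, and the part of free RNA in it was not tested. In aC+C over Ac, where 3.94% of genes were past the fold, no tested member was, and in aC+C over C, where 7.13% were, Serpinb9 was, at 0.521 before and 0.881 after the barcodes with NK transcripts were left out. Serpinb6b in Ac over IgG was at 0.640 before and 1.08 after.

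Serpinb6a stood higher in conventional CD4 T cells of Ac and aC+C as well. It had 138, 82.0 and 137 CPM in Ac, C and aC+C, against 75.1 in IgG, ratios of 1.83 (1.41 to 2.40), 1.09 (0.814 to 1.47) and 1.83 (1.41 to 2.40); 5.75%, 6.6% and 10.3% of all genes were past the fold. In the free RNA it had 147, 131 and 208 CPM in Ac, C and aC+C, against 120 in IgG. With free RNA subtracted at 5% of the gate total, the CD4 ratio of aC+C to IgG was 1.84. The gate levels were 66.2% and 62.7% of the free RNA in aC+C and IgG, so this subtraction could move the ratio little. In aC+C over C, where 6.84% of all genes were past the fold, 2 members were: Serpinb6a at 1.67 (1.31 to 2.15), and Serpinb6b, with 336 CPM in aC+C and 154 in C, at 2.18 (1.84 to 2.60); in aC+C over Ac, where 8.81% were, no tested member was. In dendritic cells Serpina3g was past the fold in Ac over IgG, at 1.66 (1.26 to 2.20), and Serpinb9 was below it in C over IgG, at 0.595 (0.496 to 0.712), where 7.7% and 8.62% of all genes were. No tested member was past the fold there in aC+C over IgG or over Ac (13.9% and 7.41% of all genes), and Serpinb9 and Serpinb6b were in aC+C over C (10.1%), at 1.57 and 1.51. These dendritic calls depend on the processing: Serpina3g in Ac over IgG ran between 1.27 and 1.96 over the alternatives tried, and in aC+C over C Serpinb9 ran between 1.44 and 1.75 and Serpinb6b between 1.35 and 1.71.

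Outside the immune gates few ratios of members were past the fold. In stromal cells Serpinb6a in Ac, C and aC+C was 1.01 to 1.05 times its IgG level, and no tested member was past the fold over IgG, where 4.26%, 5.34% and 9.7% of all genes were, nor in aC+C over Ac, where 7.65% were. Serpina3g was at 1.92 times (1.23 to 3.09) in aC+C over C, from 73 and 28 UMIs, where 7.36% of genes were past the fold. Its levels there were 13.1% and 5.92% of those in the free RNA of aC+C and C. Over the alternatives tried this ratio ran between 1.89 and 7.64. In tumor-like cells Serpinb6a in aC+C was 1.10 times (1.05 to 1.15) its level in Ac, and none of the 3 members tested was past the fold in aC+C over Ac or over C, against 5.03% and 5.38% of all genes.

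Likeness over cell types was measured as the Pearson correlation of log2(CPM + 1) over 32 profiles of gate and library, 10831 genes being compared; profiles of a library share depth and free RNA, and those of a gate share cell type, so the values are a description. The gene most like Serpinb9 was Serpinb6b (r = 0.97), followed by Ppm1j and Sema6d (0.90 each). Serpinb6b had Serpinb9 first (0.97), then Ppm1j and Cdc14a (0.90 each). Serpinb6a was most like Dap (0.95), Ifi27 (0.94) and Farp1 (0.94), and Serpina3g like Anxa6, Rab19 and Rinl (0.96 each). For Serpine2 the nearest genes were Lcn4 (0.89), Snai3 (0.86) and Gzmk (0.86), the last of which was lower, not higher, in single CD8 T barcodes with a Serpine2 UMI.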

How the data were processed

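For 4 libraries the authors deposited UMI counts of each gene in each barcode, neither filtered for cells nor normalized, with the deposited lists of genes and barcodes (other: names, not values) as rows and columns. Cell Ranger 2.1.1 and mm10 are named per the submitters' processing notes, whereas version 3.0.2 stands per the file headers; no alignment setting is stated. UMI counts include free RNA caught in a droplet.

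Members and gene lists were chosen with earlier results of these data known. Barcodes with at least 1000 UMIs and at most 10% mitochondrial UMIs were put in gates by marker transcripts; barcodes with markers of 2 lineages were left out, and doublets were otherwise treated only in an alternative, with Scrublet in scanpy 1.11.5. UMIs were summed per gate and library and given per 1000000 UMIs of the gate (CPM), with exact Poisson, binomial and Clopper-Pearson intervals (95%; scipy 1.17.1, numpy 2.4.6, pandas 2.3.3). Intervals cover counting error only. Splits of the CD8 T and myeloid gates used other genes than the members. A further split of the CD8 T gate is not reported here. Called means at least 1.5-fold either way among genes that had 100 or more UMIs in both libraries together, in gates of at least 50 barcodes; with 1 library per group no test was made. The calculation was tested on simulated data, drawn as independent Poisson counts, which is what the intervals assume. That simulation held no clustering of UMIs in barcodes and no spread between animals, so it cannot speak to either.

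Named genes are the members, Serpinb9b, serpins with at least 100 UMIs in a gate, 19 proteases and partners, and the 3 genes most like each member. Alternatives were minimums of 500 and 5000 UMIs, maximums of 5% and 20% mitochondrial UMIs, doubled gate minimums, Scrublet, equal weight per barcode, totals without mitochondrial and ribosomal protein genes, free RNA subtracted at 5%, leaving out the highest barcode, leaving out barcodes with NK transcripts, other minimums and folds for the count of genes, and TMM scaling (edgeR 4.0.16). Promoter sequences are from RefSeq (GRCm38.p6), matched by symbol for all 5 members; gene positions are from GENCODE vM21. Protein sequences were not used here.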

Additional observations from a re-analysis of the deposited data

Results flagged for a closer look

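In aC+C over C, Serpinb9 stood higher in dendritic cells, at 1.57 times, and lower in myeloid cells, at 0.398 times, and in regulatory T cells, at 0.521 times. Serpinb6b likewise stood higher in dendritic cells, at 1.51 times, and in conventional CD4 T cells, at 2.18 times, and lower in myeloid cells, at 0.134 times. They are listed because the same ratio was past 1.5-fold in opposite directions in different gates; the differences between gates were not tested, and each rests on 1 library per group. Over the alternatives tried the dendritic ratios ran between 1.44 and 1.75 for Serpinb9 and between 1.35 and 1.71 for Serpinb6b, so both fell under 1.5 in some. Without barcodes that hold at least 2 UMIs of Ncr1, Klrb1c and Klra8, the ratios of Serpinb9 were 1.18 in myeloid cells and 0.881 in regulatory T cells, and that of Serpinb6b in myeloid cells was 0.814, from 34 UMIs in aC+C and 31 in C.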

How the results depend on the processing

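No paired analysis was possible because each group is 1 library. Over the alternatives that gave a value, Serpine2 in CD8 T cells had a ratio of aC+C to IgG of 2.21 to 2.73. Serpine2 was selected for its higher level in these cells of aC+C, so this range describes the processing and is no support for the difference. A ratio was counted as changing direction only where it had been past the fold, so smaller ratios that crossed 1 are not in that count. Of the ratios of single members under an alternative, 1716 stayed within their counting interval, 112 moved outside it and 3 changed direction in that sense. These 3, all without the barcodes with NK transcripts, an alternative chosen after seeing the data, were Serpinb9 in myeloid cells, aC+C over C, 1.18; Serpinb9 in regulatory T cells, aC+C over IgG, 1.10; and Serpinb6b in regulatory T cells, Ac over IgG, 1.08. The same alternative gave, for aC+C over IgG in myeloid cells, 0.891 for Serpinb9, 0.346 for Serpinb6b and 1.75 for Serpina3g. Leaving out the highest Scrublet scores gave 0.291 for Serpinb9 and 0.0810 for Serpinb6b there; equal weight per barcode gave 0.410 and 0.234; subtracting free RNA gave 0.116 for Serpinb9. In CD8 T cells, aC+C over IgG, equal weight per barcode gave 0.979 for Serpinb9, 1.25 for Serpinb6a and 1.33 for Serpinb6b; leaving out barcodes with NK transcripts gave 1.07 for Serpinb9; and TMM scaling gave 1.11 for Serpinb9, 1.45 for Serpinb6a, 1.37 for Serpinb6b and 1.31 for Serpina3g. The number of genes past the fold in CD8 T cells, in Ac, C and aC+C over IgG and in aC+C over Ac and over C, was 525, 287, 898, 468 and 627; with a minimum of 30 UMIs it was 1152, 742, 1551, 970 and 1297, with a minimum of 300 UMIs 214, 101, 449, 203 and 271, and with a fold of 2 it was 250, 66, 296, 90 and 198. Apart from the construction of each alternative the cause of a change was not tested. Serpine2 outside CD8 T, NK and conventional CD4 T cells rests on 0 to 16 UMIs per gate and library.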

Other observations

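Of the 56 serpins that are neither members nor Serpinb9b, 12 had at least 100 UMIs in a gate and 29 had none in any gate. Serpinh1, the collagen chaperone HSP47, was highest in stromal cells, at 592, 541 and 621 CPM in Ac, C and aC+C, against 680 in IgG, and tumor-like cells had 475, 422 and 512, against 504. Serpina3n in stromal cells had 0.44, 6.90 and 11.3 CPM in Ac, C and aC+C, against 48.5 in IgG. Serping1, the C1 inhibitor, had 12.9, 28.0 and 26.0, against 90.9 in IgG. Both were past 1.5-fold downward in Ac, C and aC+C over IgG, where 2.7%, 4.2% and 6.55% of all genes were, with 87 stromal barcodes in IgG. Serpinf1, the anti-angiogenic factor PEDF, had 59.0, 94.1 and 48.4, against 112. In aC+C over IgG, 4 of the 5 other serpins tested in stromal cells were past the fold downward, with 6.55% of all genes.

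In myeloid cells Serpina3f, the neighbour of Serpina3g on chromosome 12, had 4.46, 6.47 and 13.5 CPM in Ac, C and aC+C, against 5.47 in IgG, a ratio of aC+C to IgG of 2.48. Its transcripts share 2.84% of their last windows of 50 bases with Serpina3g and Serpina3i. Serpinb10 had 4.60, 5.64 and 11.0, against 2.99 in IgG, a ratio of 3.67. These values are descriptions of 1 library per group.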
